A study of Homo sapiens with 6 samples.

Results

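The mRNAs of the aminoacyl-tRNA synthetases were followed between RNA recovered with the FERRY complex and RNA recovered with the affinity tag alone. The genes were chosen by name: every protein-coding gene whose current symbol is that of a cytosolic or mitochondrial synthetase, with the accessory proteins AIMP1, AIMP2 and EEF1E1. This gave 40 of the 60676 genes in the table, namely 20 for cytosolic enzymes or their subunits, 17 for mitochondrial enzymes and 3 for accessory proteins. All 40 passed the filter on low counts, which left 15546 genes for testing.

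Both groups were pulldowns from lysate of HEK 293, a human cell line of embryonic kidney origin that was kept in suspension culture, with no treatment or genetic change named in the labels. In one group the bait was GST bound to glutathione resin (3 libraries). In the other it was the FERRY complex carrying GST, called GST-Ferry (3 libraries), and in both the resin was held in fresh lysate for 1.5 h. FERRY is known to bind active RAB5, a small GTPase of early endosomes. No library of the input lysate was analysed here, so each value compares RNA held by the 2 baits within the total of a library, with no measure of how much of the mRNA the lysate held.

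Each synthetase joins an amino acid to the tRNAs that read its codons, and so supplies the ribosome with charged tRNA. The cytosol and the mitochondrion mostly use separate enzymes, all encoded in the nucleus, with a final digit 2 in the name of the mitochondrial form. GARS1 and KARS1 each give both forms from one gene. Mitochondria make glutaminyl-tRNA by another route that needs the amidotransferase subunits GATB, GATC and QRSL1. Several cytosolic enzymes sit with the accessory proteins in the multisynthetase complex, among them the bifunctional glutamyl-prolyl enzyme EPRS1 and the enzymes for isoleucine, leucine, lysine, methionine, glutamine and arginine. The others work outside it.

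Promoter sequence is shown first, because one element known from cytosolic synthetase genes was found more often in the cytosolic members. Many cytosolic synthetase genes are known targets of ATF4, the transcription factor of the amino acid response, which binds a C/EBP-ATF response element with the core TGATGNAA. This core was searched on both strands (TGATGNAA or TTNCATCA) in the RefSeq promoter windows of GRCh38.p14, which span from 250 bases before to 50 after a start site. Windows were at hand for 33 members. The core lay in 7 of 16 cytosolic members (43.8%), 1 of 14 mitochondrial members (7.14%) and 0 of 3 accessory members, against 4.46% of all 27305 genes with a window and 3.62% of all 35116 windows. The stretches that hold it near the start site are printed from 60 bases before to 30 after the start, on the strand of the gene, with the match in capitals.
TARS1: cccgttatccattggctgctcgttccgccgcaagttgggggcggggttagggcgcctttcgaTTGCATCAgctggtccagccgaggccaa
GARS1: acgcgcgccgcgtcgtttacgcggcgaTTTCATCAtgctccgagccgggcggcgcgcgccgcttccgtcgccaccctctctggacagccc
IARS1: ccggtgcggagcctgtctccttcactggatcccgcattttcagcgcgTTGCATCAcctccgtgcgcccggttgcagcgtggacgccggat
CARS1: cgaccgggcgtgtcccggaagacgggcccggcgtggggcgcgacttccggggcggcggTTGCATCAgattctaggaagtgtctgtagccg
MARS1: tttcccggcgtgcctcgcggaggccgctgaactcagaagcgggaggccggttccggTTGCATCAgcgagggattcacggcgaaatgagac
NARS1: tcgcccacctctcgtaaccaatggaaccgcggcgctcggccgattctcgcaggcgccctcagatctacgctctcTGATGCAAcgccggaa
They lie at chr5:33440905-33440994 (plus strand), chr7:30594818-30594907 (plus), chr9:92293668-92293757 (minus), chr11:3057394-3057483 (minus), chr12:57488008-57488097 (plus) and chr18:57621807-57621896 (minus). The same 8 letters TTGCATCA stand in TARS1, IARS1, CARS1 and MARS1, and NARS1 holds their reverse complement. AARS1 has TTGCATCA 187 bases before its start, and the mitochondrial YARS2 has TGATGGAA 197 bases before its start. A match is a description of these letters, not a binding site.

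Before the members, the libraries. Totals ran from 7390346 to 10466520 counts with GST and were 6532665, 2671831 and 2454538 counts in GST-Ferry 1, 2 and 3. A floor of 3 counts corresponds to 0.273 to 0.442 CPM on GST and 0.439 to 1.3 CPM on GST-Ferry, for counting error only. GST 3 stood apart from GST 1 and GST 2, and GST-Ferry 1 from GST-Ferry 2 and 3 (chi-square per degree of freedom of at least 55.8 and 16.3, against 13 between GST 1 and GST 2 and 4.44 between GST-Ferry 2 and 3). GST-Ferry 1 differed from GST 1 by 13.7 on this measure, less than from either of the other GST-Ferry libraries, though the measure also grows with depth. All 8 genes listed as markers of HEK 293 cells were detected, with a summed level of 1450 to 1820 CPM on GST and 2000 to 2620 CPM on GST-Ferry. One of them, the keratin KRT18, passed the test as higher with GST-Ferry. Of 10 markers of other cells 3 passed the filter on low counts, and CD3E, APOA2 and HBB had no counts at all. The fibroblast collagen COL1A1 was the most abundant of these 10, at 33.8 ± 14.6 CPM on GST and 53.6 ± 3.38 CPM on GST-Ferry (mean ± SD, n = 3). These values compare RNA held by the baits, so they measure neither the number of cells of a type nor the RNA per cell. Of 7 tested RNAs listed as nuclear markers, 4 were lower in every GST-Ferry library than in any GST library, against 12.2% of all genes tested, and none passed the test. Their summed level was 13300 to 14200 CPM on GST and 8820 to 10600 CPM on GST-Ferry, most of it MALAT1 (10800 ± 154 and 7110 ± 672 CPM). The nuclear NEAT1 and KCNQ1OT1 had log2 fold changes of -0.02 and 0.09. The list also holds NORAD, a mostly cytoplasmic RNA, at -0.25, and NORAD is one of the 4 that were lower without overlap. GAS5 had the lowest value of the list, -0.98, but was not among the 4. The part of these differences in the results on the synthetases was not tested.

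No synthetase mRNA passed the test between the baits. The cytosolic enzymes were nonetheless mostly higher with GST-Ferry, with a fold change above 0 for 19 of 20 and a median log2 fold change of 0.42, while the mitochondrial enzymes had 11 of 17 above 0 and a median of 0.10. Over all genes tested 47.8% had a fold change above 0, and the median was -0.03. The count of 19 was 16 with scaling by library sizes alone and 13 without GST-Ferry 2. The widest values were those of the glycyl enzyme GARS1, at 0.81, and of the mitochondrial seryl enzyme SARS2, at -0.69. Among the 3 accessory proteins AIMP2 was above 0, and EEF1E1 and AIMP1 were below it.

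Counts were tested with edgeR (quasi-likelihood fit), and p-values were adjusted by the Benjamini-Hochberg method over all 15546 genes, with a threshold of 0.05. The test called 0 of the 40 members, against 0.405% of all genes tested (0.392% higher and 0.0129% lower with GST-Ferry). The smallest adjusted p of a member was 0.103, for GARS1. At an unadjusted p under 0.05 there were 14 members higher and 2 lower, where 11.3% of all genes tested were higher and 1243 of 15546 lower. Among other fits, DESeq2 called 1 member (GARS1, higher) and limma-voom called 0. Over all 15546 genes DESeq2 called 534 higher and 177 lower, and limma-voom 14 and 0. The result depended on the libraries: without GST 3 the quasi-likelihood test called GARS1, NARS1 and WARS1 as higher and SARS2 as lower. Of the 15765 genes tested there, it called 750 higher and 612 lower. With GST 3 and GST-Ferry 1 both left out, a choice made after seeing the data, it called 14 members higher and 1 lower. Of the 15242 genes tested in that fit, 1802 were called higher and 1074 lower.

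**Figure D1:**
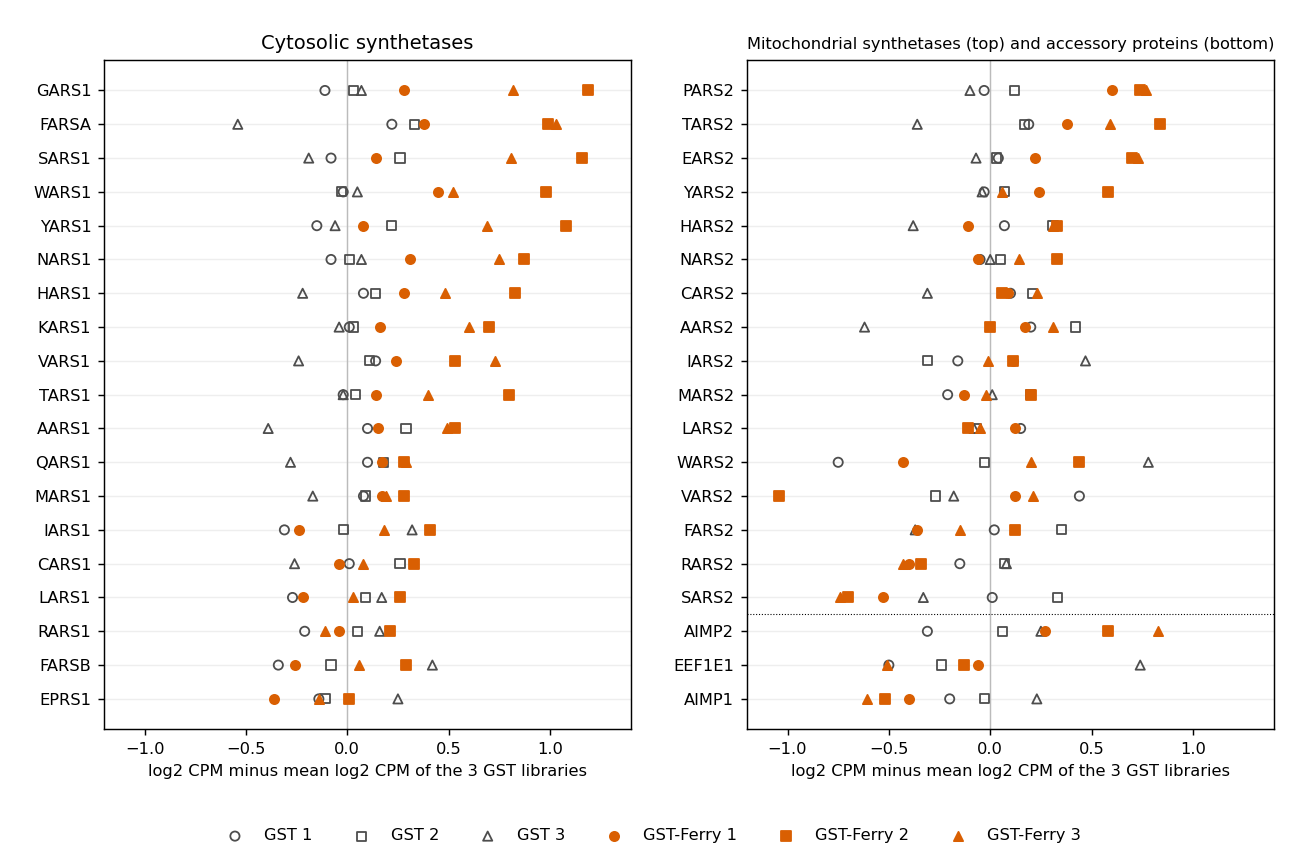
Each row is 1 of the 38 members drawn and each symbol a library: open grey symbols are GST 1 to 3 and filled orange symbols GST-Ferry 1 to 3. The horizontal axis is log2 CPM minus the mean log2 CPM of the GST libraries. In the upper cytosolic rows GST-Ferry 2 and 3 lie to the right of the open symbols, GST-Ferry 1 lies nearer to them and overlaps them in SARS1 and YARS1, and the mitochondrial rows are mostly mixed.

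Libraries of the 2 baits did not overlap for 16 members. Of these, 13 were higher with GST-Ferry: the cytosolic GARS1, FARSA, WARS1, NARS1, HARS1, KARS1, VARS1, TARS1 and MARS1, the mitochondrial PARS2, TARS2 and EARS2, and AIMP2. The 3 that were lower were SARS2, RARS2 and AIMP1. Over all genes tested, 14.9% were higher without overlap and 12.2% lower. The 9 of 20 cytosolic members lie above that background, and the 3 of 17 mitochondrial members that were higher lie near it. In each of the 13 higher members GST-Ferry 1 was the lowest GST-Ferry library. The median cytosolic member stood 0.15, 0.55 and 0.44 above the GST mean on the log2 scale in GST-Ferry 1, 2 and 3, and at -0.05, 0.07 and -0.03 in GST 1, 2 and 3. For the mitochondrial members the same medians were 0.09, 0.16 and 0.14 with GST-Ferry and 0.01, 0.07 and -0.08 with GST.

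The cytosolic enzymes that work outside the multisynthetase complex held the largest values. All 12 of their mRNAs had a fold change above 0, and the median log2 fold change was 0.60. GARS1, which charges glycine tRNAs in both compartments, had 153, 169 and 174 CPM on GST and 201, 377 and 292 CPM on GST-Ferry 1, 2 and 3. All GST-Ferry libraries were above all GST libraries, and the spread with GST-Ferry (SD 87.9 CPM) was wide beside that with GST (SD 10.8 CPM). The log2 fold change was 0.81 ± 0.23 (SE; adjusted p = 0.103 by edgeR).

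The seryl enzyme SARS1 had 173, 220 and 161 CPM on GST and 202, 408 and 320 CPM on GST-Ferry, so that GST 2 overlapped with GST-Ferry 1. Its log2 fold change was 0.74 ± 0.25 (SE). The tyrosyl enzyme YARS1 overlapped in the same way, with 275, 355 and 292 CPM against 324, 647 and 494 CPM and a log2 fold change of 0.67 ± 0.25. In both genes GST-Ferry 2 was the highest library. The tryptophanyl enzyme WARS1 was tight with GST, at 78, 77.4 and 81.9 CPM, and had 108, 156 and 114 CPM on GST-Ferry. The asparaginyl enzyme NARS1 gave nearly the same picture, with 82.5, 88 and 91.5 CPM against 108, 160 and 147 CPM. In these 2 genes GST-Ferry 1 too stood clear of the GST libraries, and their log2 fold changes were 0.67 ± 0.20 for WARS1 and 0.66 ± 0.20 for NARS1 (adjusted p = 0.117 and 0.122 by edgeR).

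The histidyl enzyme HARS1 (log2 fold change 0.54 ± 0.21), the valyl enzyme VARS1 (0.50 ± 0.20) and the threonyl enzyme TARS1 (0.47 ± 0.21) followed, each without overlap between the baits. TARS1 had 307, 321 and 307 CPM on GST and 344, 543 and 410 CPM on GST-Ferry. The alanyl enzyme AARS1 overlapped, with 169, 192 and 120 CPM against 174, 227 and 221 CPM (log2 fold change 0.37 ± 0.22). Several of these values leaned on GST-Ferry 2: without it the log2 fold change was 0.53 for GARS1, 0.46 for SARS1, 0.37 for YARS1, 0.34 for HARS1 and 0.23 for TARS1. That of AARS1 was 0.17 without GST 3. The cysteinyl enzyme CARS1 lay near 0, at 70.2 ± 12.6 CPM on GST and 76.2 ± 10.2 CPM on GST-Ferry (mean ± SD, n = 3).

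The 2 subunits of the cytosolic phenylalanyl enzyme had unlike values. This enzyme is a tetramer of alpha chains, from FARSA, and beta chains, from FARSB. FARSA had 110, 119 and 64.8 CPM on GST and 124, 189 and 193 CPM on GST-Ferry (log2 fold change 0.78 ± 0.26, SE). FARSB had 116, 139 and 197 CPM on GST and 123, 180 and 153 CPM on GST-Ferry (log2 fold change 0.01 ± 0.23). GST 3 was the lowest library for FARSA and the highest for FARSB. The ratio of FARSA to FARSB in CPM was 0.947, 0.853 and 0.33 with GST and 1.01, 1.05 and 1.26 with GST-Ferry, so the ratios of the baits did not overlap but lay close together apart from GST 3. The FARSA transcript has 60.3% GC and that of FARSB 41.6%.

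**Figure D2:**
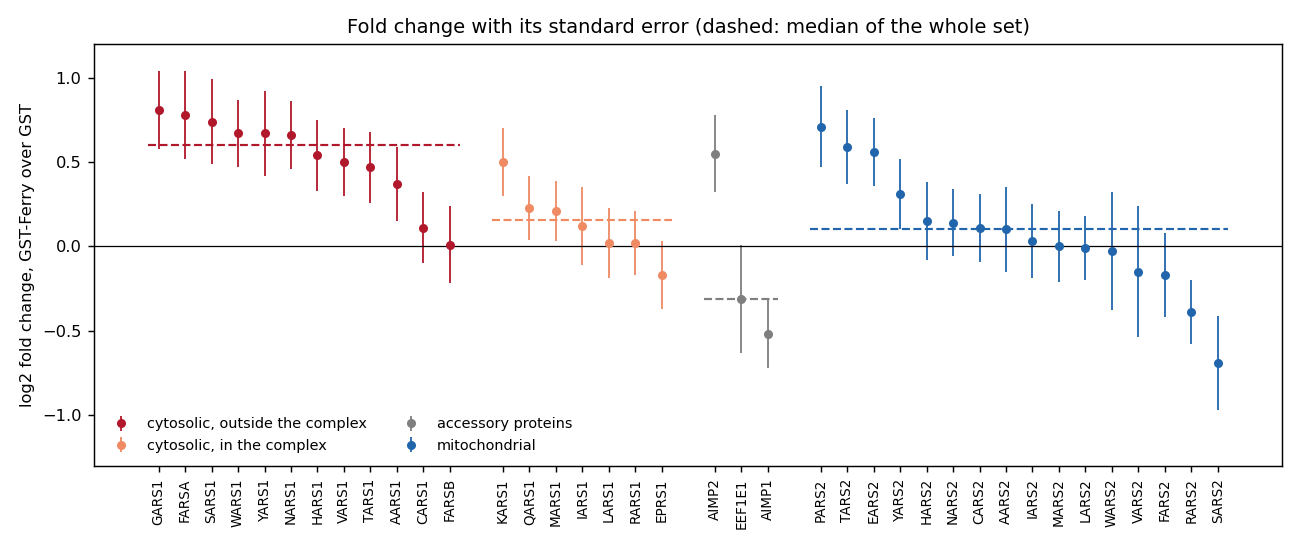
Points are log2 fold changes of GST-Ferry over GST for the 38 members drawn, bars are standard errors from the fit, and dashed lines are the median over all members of each set. The cytosolic enzymes outside the complex have a median of 0.60, those in it 0.15 and the mitochondrial enzymes 0.10.

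The 8 enzymes of the multisynthetase complex lay lower as a set, with 7 of 8 above 0 but a median log2 fold change of 0.15. The lysyl enzyme KARS1, the other gene that serves both compartments, was the highest of them. It had 103, 104 and 99.7 CPM on GST and 114, 166 and 155 CPM on GST-Ferry, without overlap (log2 fold change 0.50 ± 0.20, SE). The methionyl enzyme MARS1 also did not overlap, though the difference was small: 213, 213 and 179 CPM against 226, 244 and 229 CPM (0.21 ± 0.18). The glutaminyl enzyme QARS1 had a log2 fold change of 0.23 ± 0.19, with overlap.

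The enzymes IARS1, LARS1, RARS1 and EPRS1 lay between -0.17 and 0.12. IARS1, the isoleucyl enzyme, was the most abundant member on average per kb of transcript over all libraries, with 545, 666 and 843 CPM on GST and 571, 895 and 765 CPM on GST-Ferry. The range within each bait covered most of that of the other. The leucyl enzyme LARS1 had 408, 523 and 553 CPM against 421, 589 and 501 CPM. The arginyl enzyme RARS1 had 102, 122 and 133 CPM against 115, 137 and 110 CPM. Both had a log2 fold change of 0.02, with an SE of 0.21 for LARS1 and 0.19 for RARS1. EPRS1 was the only cytosolic member below 0 in this fit (0.02 with the trends with GC content and length removed), with 328, 333 and 428 CPM on GST and 281, 363 and 326 CPM on GST-Ferry (log2 fold change -0.17 ± 0.20). In IARS1, LARS1, RARS1 and EPRS1 GST 3 was the highest GST library.

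The accessory proteins of the complex, which hold it together and carry no synthetase activity, differed among themselves. The scaffold AIMP2 had 22.3, 28.7 and 32.9 CPM on GST and 33.4, 41.4 and 49.1 CPM on GST-Ferry (log2 fold change 0.55 ± 0.23, SE). The highest GST library nearly reached the lowest GST-Ferry library. AIMP1, whose product is also released as a cytokine, had 79, 88.7 and 107 CPM on GST and 68.6, 63.2 and 59.6 CPM on GST-Ferry (-0.52 ± 0.20), again without overlap. EEF1E1, also called AIMP3, had 15.4, 18.5 and 36.7 CPM against 20.9, 19.9 and 15.2 CPM, and its value of -0.31 ± 0.32 rested on GST 3. Without GST 3 its log2 fold change was 0.14. The gene AIMP1 shares 5952 bases with TBCK on the opposite strand. TBCK encodes a subunit of the bait, and with the strand setting of the counting not given in the sources used here, reads of the pair may not be fully separated. The same limit holds for AIMP2, which shares 1591 bases with EIF2AK1 on the opposite strand. EIF2AK1 had 6087 counts over all libraries and AIMP2 1212.

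The contrast between the enzymes outside the complex and those in it can be set beside base composition. The median GC content of the longest annotated coding transcript was 51.6% outside the complex and 43.4% in it, and the median lengths were 3168.5 and 2866 bases. Over the 15437 tested genes with a transcript, the log2 fold change correlated with GC content (Pearson r = 0.487, Spearman rho = 0.532, across genes of the same libraries, which are not independent). Over the 20 cytosolic members r was 0.497 and rho 0.569, and over the 17 mitochondrial members -0.0524 and -0.0429. After removal of each library's trends with GC content and length, a choice made after seeing the data, the median was 0.55 outside the complex and 0.24 in it. That removal also takes out any difference between the baits that follows GC content. With GST 3 and GST-Ferry 1 both left out the medians were 0.67 and 0.19. Without GST-Ferry 2 they were 0.41 and -0.07.

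**Figure D3:**
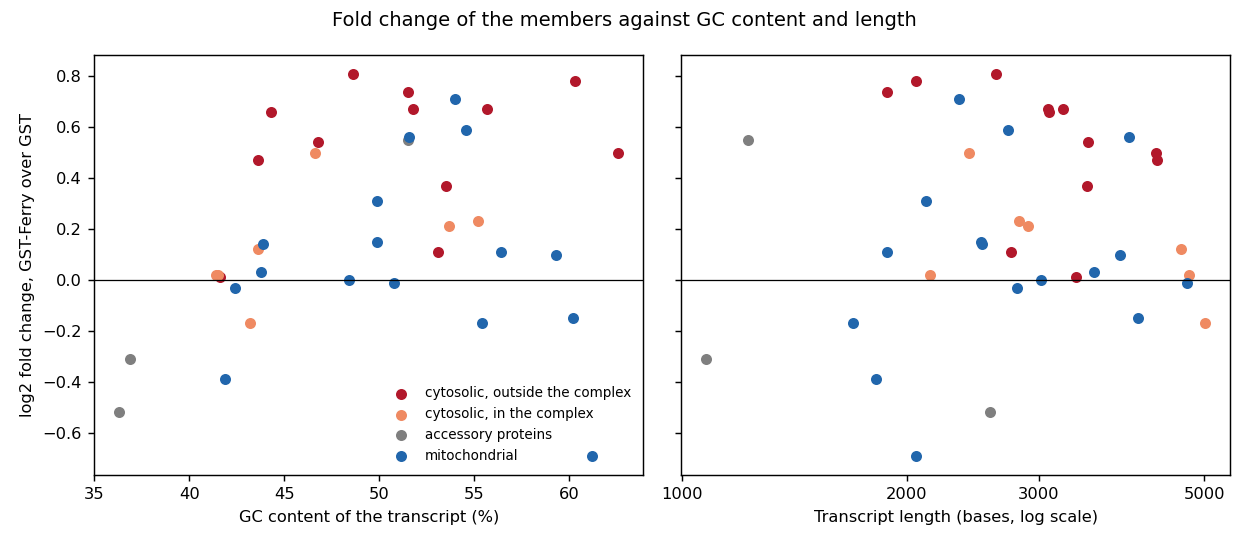
Log2 fold change of GST-Ferry over GST for the 38 members drawn, against the GC content (left) and the length (right, log scale) of its longest coding transcript. The cytosolic FARSB, LARS1 and RARS1, with 41.4% to 41.6% GC, lie close to 0, and the mitochondrial members include both PARS2 (54% GC, 0.71) and SARS2 (61.2% GC, -0.69).

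A grouping by fold of the catalytic domain gave a median log2 fold change of 0.42 for the 18 class II enzymes and 0.11 for the 18 class I enzymes, EPRS1 left out because it holds both. This grouping is not separate from that by the complex. The class I enzymes IARS1, LARS1, MARS1, QARS1 and RARS1 sit in the complex, as do some of class II, KARS1 among them. Of the class II members 8 were higher and 1 lower without overlap, and of the class I members 4 were higher and 1 lower, where 14.9% of all genes tested were higher and 12.2% lower in this way. The response element of the promoters did not separate the cytosolic members in the same way. The 7 with the core had log2 fold changes from 0.11 to 0.81 with a median of 0.37, and the 9 whose windows lack it from -0.17 to 0.78 with a median of 0.50.

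Mitochondrial synthetase mRNAs were less abundant than the cytosolic ones per length and showed values on both sides of 0. Per kb of transcript, their mean with GST ran from 1.31 to 53.2 CPM with a median of 18.5, against 25.4 to 147 and a median of 51.5 for the cytosolic members. The most abundant was the isoleucyl enzyme IARS2, with 165, 148 and 255 CPM on GST and 199, 198 and 182 CPM on GST-Ferry (log2 fold change 0.03 ± 0.22, SE). The prolyl enzyme PARS2 had the highest fold change of the class from a low level, with 9.91, 11 and 9.43 CPM on GST and 15.5, 17.1 and 17.4 CPM on GST-Ferry. Here the 3 GST-Ferry libraries were close to each other, GST-Ferry 1 included, and the log2 fold change was 0.71 ± 0.24 (adjusted p = 0.142 by edgeR).

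The threonyl enzyme TARS2 had 99.8, 98 and 68.1 CPM on GST and 114, 156 and 131 CPM on GST-Ferry (log2 fold change 0.59 ± 0.22, SE). The glutamyl enzyme EARS2 had 57.9, 57.5 and 53.8 CPM against 65.8, 91.9 and 93.5 CPM (0.56 ± 0.20). Neither overlapped between the baits. The tyrosyl enzyme YARS2 overlapped, with 31.6, 33.8 and 31.2 CPM against 38.2, 48.1 and 33.5 CPM (0.31 ± 0.21, and 0.12 without GST-Ferry 2).

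At the other end, SARS2 had 11.9, 14.9 and 9.28 CPM on GST and 8.05, 7.16 and 6.96 CPM on GST-Ferry. The GST-Ferry libraries were tight and all lower than GST. The log2 fold change was -0.69 ± 0.28 (SE, adjusted p = 0.211 by edgeR). Without GST 3 it was -0.86 (adjusted p = 0.0436 by edgeR). In GENCODE 29 SARS2 shares 15493 bases with another protein-coding gene on the same strand, and 349 bases with MRPS12 on the opposite strand. MRPS12 had 1271 counts over all libraries and SARS2 437. With the counting program not given, reads of SARS2 may have been left out or misassigned, which was not tested. The arginyl enzyme RARS2 had 67.6, 78.4 and 79.3 CPM on GST and 56.8, 59.3 and 55.7 CPM on GST-Ferry, also all lower (-0.39 ± 0.19). For the phenylalanyl enzyme FARS2 the libraries overlapped, at 28.6, 35.9 and 21.7 CPM against 21.8, 30.6 and 25.2 CPM (-0.17 ± 0.25). The valyl enzyme VARS2 had the lowest CPM of the members, with 7.19, 4.28 and 4.57 CPM against 5.71, 2.39 and 6.09 CPM. It had 6 counts in its thinnest library.

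HARS2, NARS2, CARS2, AARS2, MARS2, LARS2 and WARS2 lay between -0.03 and 0.15 in log2 fold change, with overlapping libraries. Of these, AARS2 and WARS2 had the widest spread with GST relative to their mean. AARS2 had 113 and 133 CPM in GST 1 and 2 and 64.2 CPM in GST 3. WARS2 had 19, 31.5 and 55.5 CPM in GST 1, 2 and 3. GST 3 was the lowest GST library for AARS2 and the highest for WARS2, the GC content of AARS2 being 59.3% and that of WARS2 42.4%.

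Comparing the enzymes for the same amino acid, the cytosolic mRNA had the larger fold change in 15 of 18 pairs, with a median difference of 0.24 on the log2 scale. The pairs cover 17 amino acids, with FARSA and FARSB each set against FARS2 and EPRS1 set against both EARS2 and PARS2, so they are not all independent. The ratio of cytosolic to mitochondrial CPM was higher in every GST-Ferry library than in any GST library for 5 pairs, SARS1/SARS2, FARSA/FARS2, NARS1/NARS2, RARS1/RARS2 and HARS1/HARS2. It was lower without overlap for 2 pairs, both with EPRS1. No such count over other pairs of genes was made as a background.

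The seryl pair stood furthest apart, with the limit on reads of SARS2 given above. The ratio of SARS1 to SARS2 was 14.6, 14.8 and 17.3 with GST and 25.1, 56.9 and 46 with GST-Ferry, a difference of 1.43 between the log2 fold changes. For FARSA over FARS2 the ratio was 3.86, 3.31 and 2.99 with GST and 5.67, 6.17 and 7.66 with GST-Ferry, a difference of 0.94. The tryptophanyl pair came next at 0.70, but its ratio overlapped: 4.11, 2.45 and 1.47 with GST and 4.54, 3.57 and 3.07 with GST-Ferry. Its difference leaned on GST 3, without which the log2 fold change was 0.67 for WARS1 and 0.4 for WARS2. The arginyl pair had ratios of 1.52, 1.56 and 1.67 with GST and 2.03, 2.32 and 1.98 with GST-Ferry, with a log2 fold change of 0.02 for RARS1 and -0.39 for RARS2.

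In the opposite direction, EPRS1 over PARS2 was 33, 30.2 and 45.4 with GST and 18.1, 21.2 and 18.8 with GST-Ferry (a difference of -0.88). EPRS1 over EARS2 was 5.65, 5.8 and 7.96 with GST and 4.27, 3.95 and 3.49 with GST-Ferry (-0.73). Both rest on the same EPRS1 values. TARS1 over TARS2 was the third pair in this direction, at -0.12, and its ratios overlapped.

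**Figure D4:**
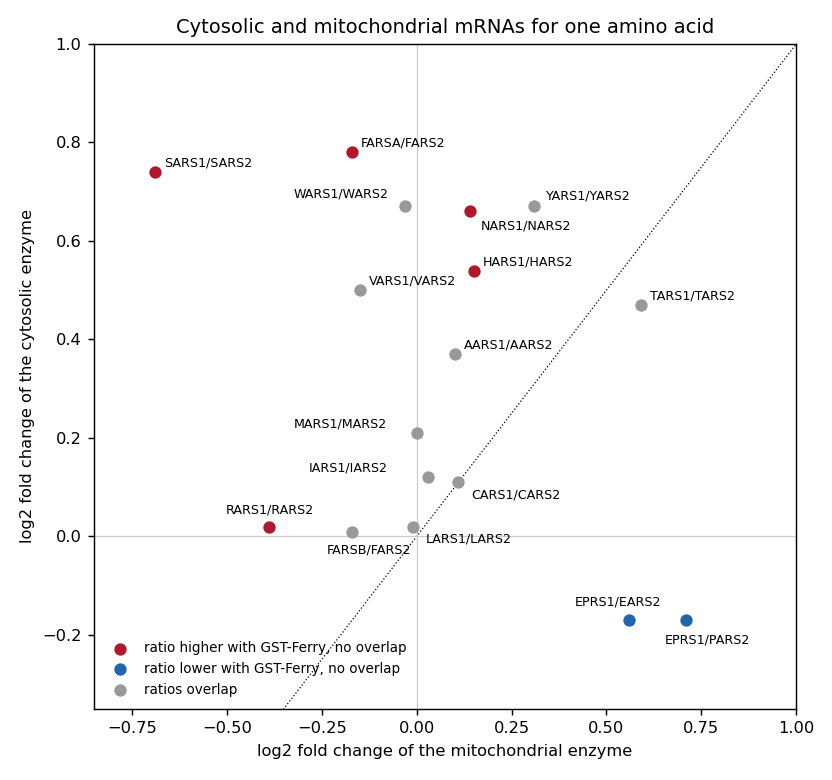
Each of the 17 points is a pair of genes for one amino acid, with the log2 fold change of the mitochondrial enzyme on the horizontal axis and of the cytosolic enzyme on the vertical axis; the dotted line marks equal values. The seryl pair lies furthest above the line, and the 2 pairs with EPRS1 lie furthest below it.

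HARS1 and HARS2 face away from each other and share their start region. RefSeq places 84 bases between their start sites, at chr5:140691371-140691454 of GRCh38.p14, printed on the plus strand from the HARS1 start on the left to the HARS2 start on the right because both genes are transcribed outward from it.
HARS1-HARS2: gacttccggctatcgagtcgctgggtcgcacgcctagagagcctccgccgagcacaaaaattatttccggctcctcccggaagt
HARS1 over HARS2 was 1.91, 1.68 and 2.13 with GST and 2.49, 2.68 and 2.14 with GST-Ferry, so GST 3 and GST-Ferry 3 nearly met. In the GENCODE 29 annotation the 2 genes overlap by 437 bases on opposite strands. In all, 14 of the 40 members overlap a protein-coding gene on the opposite strand there. Overlaps with a protein-coding gene on the same strand, which the strand of a read cannot separate, were also present. They were found for HARS2 (ZMAT2, 639 bases), VARS2 (GTF2H4, 5865 bases), SARS2 (15493 bases) and EEF1E1 (EEF1E1-BLOC1S5, 29171 bases). Their part in the values of these members was not tested.

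None of the related genes fixed as lists passed the test either. Of 14 other tRNA charging and editing genes, 7 had a fold change above 0 and the median log2 fold change was 0.02. The highest in the mean over all libraries, though not on GST alone, was PUSL1, which had 40.4 ± 9.6 CPM on GST and 83.1 ± 21.6 CPM on GST-Ferry (log2 fold change 1.03 ± 0.26, SE), with no overlap. The highest on GST, GATC of the mitochondrial amidotransferase, had 62.6 ± 23 CPM on GST and 59.4 ± 4.42 CPM on GST-Ferry (mean ± SD, n = 3). Of 9 tested elongation factors that handle charged tRNA or act beside them, 6 were above 0, with a median of 0.24. The most abundant was EEF1A1, which carries aminoacyl-tRNA to the cytosolic ribosome, at 3110 ± 1270 and 2830 ± 451 CPM. TUFM, its mitochondrial counterpart and chosen after its values were seen, had 156 ± 31.6 and 301 ± 62.7 CPM (log2 fold change 0.94 ± 0.22, SE; adjusted p = 0.0676 by edgeR).

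Of 25 amino acid response genes, 19 had a fold change above 0, 11 were higher and 2 lower without overlap, and the median was 0.31. Over all genes tested 47.8% were above 0, 14.9% were higher without overlap and 12.2% lower. The median GC content of the list was 55.3%, against 48.3% over the tested genes with a transcript. The part of the trend with GC content in these counts was not tested. ATF4 itself, the most abundant of the list in the mean over all libraries, had 315 ± 68.6 and 336 ± 77.3 CPM, and on GST-Ferry alone PHGDH was higher (416 ± 81.8 CPM). The asparagine synthetase ASNS, a classic target and chosen after its values were seen, was on the other side, at 18.7 ± 3.46 and 9.96 ± 1.44 CPM (log2 fold change -0.88 ± 0.26, SE). That was the lowest value of the list. The highest was that of PYCR1, also chosen after its values were seen, at 1.18 ± 0.24 (SE). Of 31 tRNA modification, processing and export genes, 19 were above 0 with a median of 0.10, and the exportin XPOT had 280 ± 95.2 and 253 ± 17.6 CPM.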

How the data were processed

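RNA from 6 GST pulldowns was sequenced after depletion of ribosomal RNA, as strand-specific libraries, per the labels' protocols. The authors deposited raw read counts per Ensembl gene. The tools named are STAR 2.5.2b and bcl2fastq 2.19.1, with the build GRCh38.p13, per the submitters' processing notes. The counting program, annotation release and strand setting are not given in the sources used here. Per the file headers the columns are control or sample with a number. The control columns were assumed to be the GST libraries and the sample columns the GST-Ferry libraries of the same numbers, which rests on the words alone.

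Symbols came from a table of gene names, and gene types, positions and transcripts from GENCODE 29. Genes were filtered with filterByExpr (minimum count 10, minimum total 15), scaled with TMM (factors 0.923 to 1.1) and tested with edgeR's robust quasi-likelihood fit (edgeR 4.0.16, R 4.3.3), two-sided, no covariate. CPM are TMM-scaled, and log2 CPM used a prior count of 2. The fit was tested on simulated data. Alternatives used DESeq2 1.42.0, limma 3.58.1, other scalings, filter and threshold, a replicate block and each library left out, and, chosen after seeing the data, a fit without the robust option, offsets for GC content and length, library weights, and GST 3 and GST-Ferry 1 both left out. Figures were drawn with matplotlib 3.10.9.

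The members and lists were chosen with earlier results of these data known, and the promoter motif and the split by the complex were described after the values were seen. Values in every library are given by rule for called members, in each class for the 4 largest and 4 smallest fold changes and the most abundant per kb, and for the 3 pairs furthest apart in each direction. Related lists give called members, otherwise the most abundant one. Further members were added to fill out the classes. No label names separate cultures for the replicates, so the p-values reflect only how far these samples spread, and that spread may be technical. No library was merged with another, since those of one bait differed beyond counting noise. Counts and medians cover every member, but the single values of some members are not reported here and not drawn.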

Additional observations from a re-analysis of the deposited data

How the results depend on the processing

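The number of genes called over the whole table varied with the setting, from 61 higher and 2 lower with GST-Ferry. It was 3 and 0 with RLE size factors, 4 and 0 with library sizes alone, 392 and 261 with no filter on low counts, 534 and 177 with DESeq2, 14 and 0 with limma-voom, and 0 and 0 at a threshold of 0.01. Among settings chosen after seeing the data it was 92 and 5 without the robust option, 337 and 67 with offsets for GC content and length, 1621 and 927 with library weights, and 1802 and 1074 with GST 3 and GST-Ferry 1 both left out. Leaving out each library in turn gave 0 to 750 higher and 0 to 612 lower, the highest of both without GST 3.

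Synthetase members called higher were 1 with no filter and 1 with DESeq2 (GARS1), 2 with the offsets (GARS1 and NARS1), 14 with library weights and 14 with both libraries left out. SARS2 was the 1 member called lower with the offsets, with library weights and with both libraries left out. Each library left out in turn gave 0 to 3 members higher and 0 to 1 lower, all of them without GST 3. Related genes called higher were 10 with no filter, 11 with DESeq2, 2 without the robust option, 6 with the offsets, 19 with library weights and 23 with both libraries left out. Those called lower were 2 with library weights and 1 with both libraries left out. Each library left out gave 0 to 11 higher and 0 to 2 lower.

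With the replicate number as a block, 150 genes were called higher and 26 lower, with 0 members and 5 related genes among the higher. The correlation of deviations between same-numbered libraries was 0.25, 0.08 and -0.13, and not every library correlated best with its own number. With 3 libraries per bait, these values cannot decide whether the numbers pair the samples. INS, a marker of other cells with few counts, had 0, 38 and 13 counts for GST 1, 2 and 3. Its counts for GST-Ferry 1, 2 and 3 were 0, 12 and 5, the same order by number. Pairing by number was not tested beyond this.

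The cytosolic median lay between 0.25 and 0.55 with each library left out, between 0.41 and 0.72 outside the complex and between -0.07 and 0.26 in it. The mitochondrial median was 0.01 with library sizes alone and -0.03 to 0.13 with each library left out. The accessory median was 0.14 with the offsets, 0.04 with library weights, 0.06 with both libraries left out and -0.55 to 0.14 with each library left out. The cytosolic median exceeded the mitochondrial one in every setting run, by 0.21 to 0.42 with each library left out. The median of all genes was -0.18 with no filter and -0.09 with library sizes alone.

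The following members, whose log2 fold changes reported above ran from -0.31 (EEF1E1) to 0.15 (HARS2), changed sign in some settings. With RLE size factors FARSB was at -0.01 and MARS2 at -0.01. With library sizes alone FARSB was at -0.04, LARS1 at -0.04, RARS1 at -0.04, IARS2 at -0.01 and MARS2 at -0.06. With no filter FARSB was at -0.05, LARS1 at -0.03, RARS1 at -0.04, IARS2 at -0.02 and MARS2 at -0.05. With DESeq2 FARSB was at -0.01 and MARS2 at -0.02. WARS2 was at 0.03 with limma-voom and 0.08 with the replicate block. With the offsets EPRS1 was at 0.02, AARS2 at -0.15, CARS2 at -0.08, WARS2 at 0.19 and EEF1E1 at 0.14. With library weights AARS2 was at -0.06, WARS2 at 0.48 and EEF1E1 at 0.04. With both libraries left out EPRS1 was at 0.06, AARS2 at -0.15, CARS2 at -0.01, WARS2 at 0.68 and EEF1E1 at 0.06. WARS2 was among the members called higher in that fit. Each library left out in turn gave AARS2 -0.18 to 0.3, CARS1 -0.04 to 0.23, CARS2 -0.06 to 0.19, EEF1E1 -0.55 to 0.14 and FARS2 -0.37 to 0.01. It gave FARSB -0.17 to 0.22, HARS2 -0.05 to 0.3, IARS1 -0.08 to 0.28, IARS2 -0.14 to 0.28, LARS1 -0.14 to 0.14 and LARS2 -0.08 to 0.05. It gave MARS2 -0.13 to 0.09, NARS2 0 to 0.24, RARS1 -0.12 to 0.08, VARS2 -0.35 to 0.11 and WARS2 -0.36 to 0.4. The cause of these differences was not tested. Depth limits the members with the fewest counts most: VARS2 had 6 counts in its thinnest library and SARS2 16. Both share bases with another protein-coding gene on the same strand, and the part of that overlap in their low counts was not tested.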
